A study of Mus musculus with 24 samples.

Results

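Notch signalling and neural stem cells were followed through 10 genes: the receptors *Notch1* and *Notch2*, the ligand *Dll1*, the target genes *Hes1*, *Hes5*, *Hey1* and *Hey2*, and *Sox2*, *Fabp7* and *Nes*, which mark neural stem cells and radial glia. They were chosen by name, but with earlier results of these data known, so the counts called below are not independent of those results. Every probe whose transcript accession belonged to one of these symbols was taken. This gave 11 of the 56605 unique probes on the array, 1 probe for each gene except *Hes5*, which had 2. Where a gene had more than 1 probe, values are those of its brightest probe unless another is named, and the genes were 10 of the 23787 with a named probe.

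Notch receptors are cut after a ligand such as DLL1 on a neighbouring cell binds them. The freed intracellular domain enters the nucleus, joins the DNA-binding protein RBPJ and switches on genes of the *Hes* and *Hey* families, whose products repress the genes that start neuronal differentiation. In the adult hippocampus the pathway is known for keeping the radial glia-like stem cells of the dentate gyrus undifferentiated, and *Hes5*, *Sox2* and *Fabp7* are also transcribed in astrocytes.

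The samples were whole hippocampi of 48 male Swiss-Webster mice, 12 weeks of age when they entered the experiment. By the paper's account all were then housed singly for some weeks of habituation before treatment. Corticosterone-treated animals drank water with 100 µg/ml corticosterone and 0.45% hydroxypropyl-β-cyclodextrin through a 12 h dark phase, and control animals, brothers from the same litters, drank water with the same cyclodextrin alone. Animals were killed during the first, the fifth or the ninth hour of the following resting period, with 8 corticosterone-treated and 8 control animals at each hour, so every group had its own animals and the corticosterone taken in depended on how much each mouse drank. Each of the 24 arrays held 1 control animal labelled with Cy3 and 1 corticosterone-treated animal labelled with Cy5. Because this assignment never changed, a difference between the dyes and an effect of corticosterone cannot be told apart within 1 hour, whereas a dye difference cancels when the effect is compared between hours or when animals of 1 treatment are compared between hours.

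The median spot intensity ranged from 82 to 96 in the Cy3 channel and from 120.5 to 160.5 in the Cy5 channel. The scanner software marked 57.9 to 64.2% of probes as well above background in Cy3 and 61.0 to 70.4% in Cy5. All 6 marker genes of the dissected hippocampus, among them *Prox1* of dentate granule cells and *Wfs1* of CA1, were well above background in all 48 channels.

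The genes that responded during the first hour were the stem cell genes and 1 Notch target. *Fabp7*, *Hes5*, *Sox2* and *Nes* were lower in corticosterone-treated animals, with log2 fold changes of -0.73, -0.66, -0.48 and -0.32. Of the 11 probes, 5 were called lower at an adjusted p below 0.05, both *Hes5* probes among them, beside 8.67% of all probes in that direction, and none was called higher, beside 8.85% of all probes. During the fifth hour 3 of 11 probes were called lower (*Fabp7*, *Nes* and *Hey1*), beside 9.47% of all probes, and none higher, beside 8.62%. During the ninth hour *Hey1* was the only 1 of 11 called lower, beside 6.97%, and none was higher, beside 7.01%. The shares over all probes include dim ones, whereas of the 11 only *Hey2* had a mean intensity below 50. Of the 32033 probes of 50 or more, adjusted among themselves, 6803, 6691 and 4467 were called in either direction at the 3 hours. The median log2 fold change of the 11 probes was -0.24, -0.14 and -0.07 at the first, the fifth and the ninth hour, while the median over all probes was 0.00 at each. In whole tissue, fewer cells of a type and less RNA per cell cannot be told apart.

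**Figure D1:**
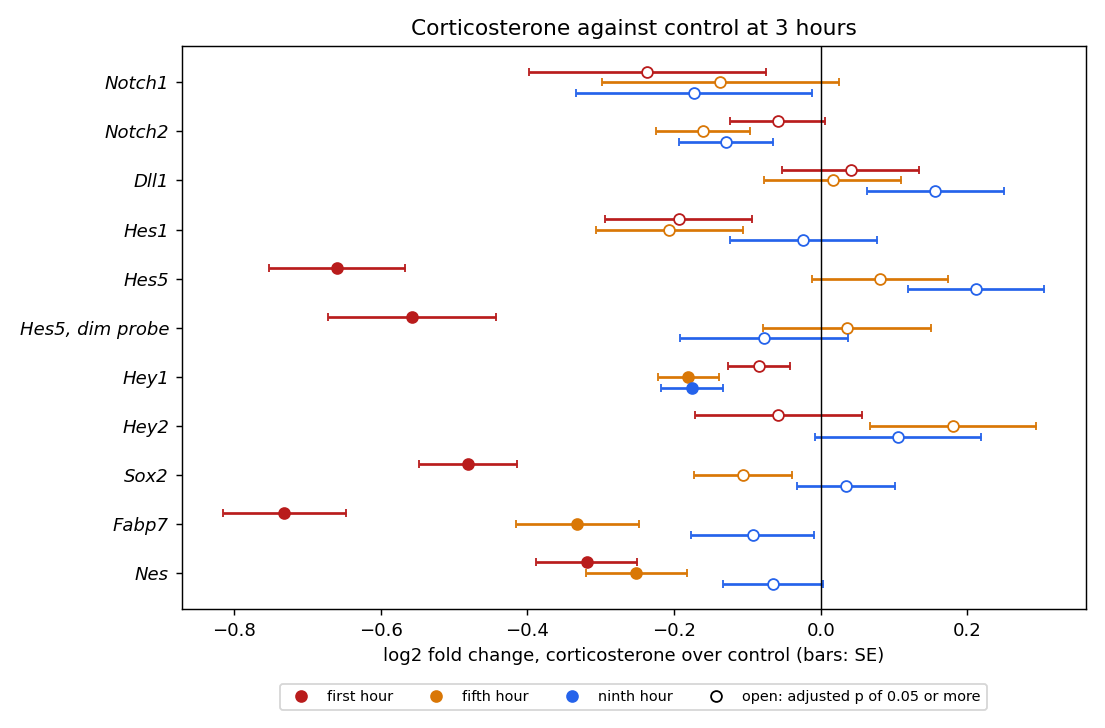
log2 fold change of corticosterone-treated over control animals (horizontal axis, with SE) for each of the 11 probes at the first, the fifth and the ninth hour; filled points have an adjusted p below 0.05. The points of *Hes5*, *Sox2*, *Fabp7* and *Nes* lie furthest to the left at the first hour, from -0.73 to -0.32, whereas *Hey1* stays near -0.18 at the fifth and ninth hour.

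The receptors and the ligand did not pass limma's separate channel test at any hour. *Notch1* (chr2:26457902-26503822, minus strand, GRCm38.p6) had signal intensities of 1480 to 2665 (median 2088.5) in control animals and 1467 to 2440 (median 1699) in the corticosterone-treated ones at the first hour. The groups overlapped across most of their range, with corticosterone-treated animals lower on 7 of 8 arrays. The log2 fold change of *Notch1* was -0.24 ± 0.16 (SE) with an adjusted p of 0.303, and it was -0.14 and -0.17 at the fifth and ninth hour. *Notch1* had the largest SE of the 11 probes, and the interval of 1.96 SE around its first-hour value ran from -0.55 to 0.08, which holds the estimate of *Sox2*. With limma on log ratios and slide as a fixed term, a setting chosen after seeing the data, the first-hour value was -0.24 with an adjusted p of 0.0499, and the range over all alternatives was 0.0499 to 0.578.

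*Notch2* (chr3:98013538-98150367), the other receptor of the set, had mean intensities of 942 ± 82.7 (SD, n = 8) in control animals and 907 ± 108 in the treated ones at the first hour. The log2 fold change of *Notch2* was -0.06, -0.16 and -0.13 at the successive hours, and the smallest adjusted p, at the fifth hour, was 0.0620. The first-hour interval of *Notch2*, from -0.18 to 0.07, does not reach the values of *Sox2*, *Fabp7* or *Hes5*. *Dll1* (chr17:15367354-15376932), the ligand, read 165 to 195 in control and 150 to 219 in corticosterone-treated animals at the first hour, and its log2 fold changes were 0.04, 0.02 and 0.16 with a smallest adjusted p of 0.283. Corticosterone-treated animals were higher for *Dll1* on 4, 4 and 6 of 8 arrays at the 3 hours. With the processed signals of the scanner software the ninth-hour value of *Dll1* was 0.23 (adjusted p = 0.0445), and the range over all alternatives was 0.0445 to 0.675.

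Among the 4 target genes, *Hes5* (chr4:154960626-154962372) moved most. During the first hour its bright probe read 4622 to 6956 (median 5833) in control animals and 2846 to 5213 (median 3578) in corticosterone-treated animals. Of the corticosterone-treated animals, 7 of 8 lay below the lowest control animal. The log2 fold change was -0.66 ± 0.09 (SE; adjusted p = 4.22e-07), so that intensity fell by 36.7%, and the ratio was below 0 on 8 of 8 arrays, from -1.16 to -0.18. The dim *Hes5* probe read 64.3 to 101 in control and 45.7 to 88.2 in corticosterone-treated animals, and its log2 fold change of -0.56 ± 0.11 (adjusted p = 0.000889) had the same direction on 8 of 8 arrays.

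The decrease of *Hes5* was present on each of the 3 slides that carried the arrays, at sizes whose difference was not tested. The mean log2 ratio of the bright probe during the first hour was -0.98 on the first slide (2 arrays), -0.31 on the second (3 arrays) and -0.79 on the third (3 arrays). On the dim probe these means were -0.91, -0.27 and -0.61. On both probes the decrease was smallest on the second slide.

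By the fifth hour the *Hes5* groups had come together. The bright probe read 4191 to 5821 (median 4994) in control and 3703 to 6386 (median 5542) in corticosterone-treated animals, with a log2 fold change of 0.08 (adjusted p = 0.575). During the ninth hour it read 3902 to 6279 (median 5573) and 5159 to 6902 (median 6163), with a log2 fold change of 0.21 ± 0.09 (adjusted p = 0.104) and higher corticosterone-treated animals on 6 of 8 arrays. The dim probe gave -0.08 at that hour, so the probes differed in sign there and neither passed the test. Fitted on the arrays of the ninth hour alone, the bright probe passed with an adjusted p of 0.0495; the range over all alternatives was 0.0495 to 0.388.

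**Figure D2:**
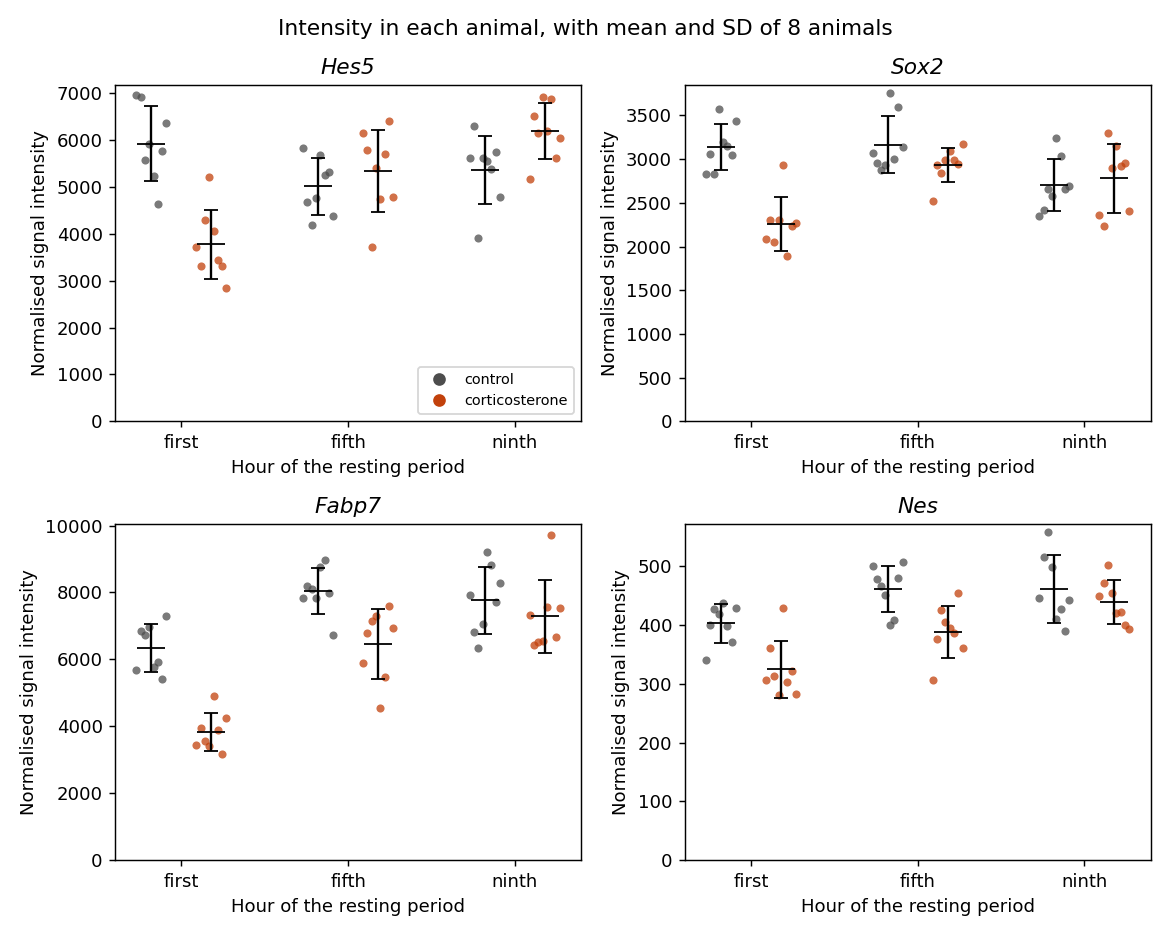
Normalised signal intensity (vertical axis, from 0) of *Hes5* (bright probe), *Sox2*, *Fabp7* and *Nes* in each animal by hour of the resting period; points are animals, bars are the mean and SD of 8 animals. Corticosterone-treated animals sit below most control animals at the first hour, where their mean *Hes5* intensity is 3770 beside 5913, and the groups overlap at the ninth hour.

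The sequences just before the transcription start of the 4 genes that were lower during the first hour are shown because these are the genes called at that hour. RefSeq promoter windows of GRCm38.p6, 250 bases before to 50 bases after the start, were at hand for 8 of the 10 genes, with 2 windows for *Dll1*; *Hes1* and *Hey1* had none. Below are the 250 bases before each start, 5′ to 3′ on the strand of the gene: *Hes5* (chr4:154960673-154960922, plus strand), *Fabp7* (chr10:57784673-57784922, plus strand), *Sox2* (chr3:34649745-34649994, plus strand) and *Nes* (chr3:87970843-87971092, plus strand). Capitals mark matches on either strand to TGGGAA, the core of the RBPJ site, to CACNAG, the N-box of HES factors, to CACGNG, the class C site of HES and HEY factors, or to AGAACA, a single arm of the site of the glucocorticoid receptor.
Hes5: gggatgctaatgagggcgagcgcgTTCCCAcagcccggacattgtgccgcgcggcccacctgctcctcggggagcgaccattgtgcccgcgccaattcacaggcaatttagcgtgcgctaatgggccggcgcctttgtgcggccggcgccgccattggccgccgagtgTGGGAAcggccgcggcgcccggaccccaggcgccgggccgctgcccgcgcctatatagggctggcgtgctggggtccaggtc
Fabp7: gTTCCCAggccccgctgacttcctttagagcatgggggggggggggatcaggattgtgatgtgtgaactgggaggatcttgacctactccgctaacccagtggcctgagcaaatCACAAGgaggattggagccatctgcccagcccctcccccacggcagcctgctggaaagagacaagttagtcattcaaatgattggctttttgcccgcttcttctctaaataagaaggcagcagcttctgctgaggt
Sox2: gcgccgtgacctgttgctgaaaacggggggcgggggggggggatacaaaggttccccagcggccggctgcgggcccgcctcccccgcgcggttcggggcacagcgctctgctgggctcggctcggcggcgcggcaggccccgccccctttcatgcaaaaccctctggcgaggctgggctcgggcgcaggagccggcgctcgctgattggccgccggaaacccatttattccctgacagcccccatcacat
Nes: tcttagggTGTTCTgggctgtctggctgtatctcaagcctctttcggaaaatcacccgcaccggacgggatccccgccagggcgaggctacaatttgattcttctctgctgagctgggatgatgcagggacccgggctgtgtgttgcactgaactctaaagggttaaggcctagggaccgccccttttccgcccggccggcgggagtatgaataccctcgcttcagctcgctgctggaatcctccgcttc

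The RBPJ core occurred 2 times in the *Hes5* window, with first bases 226 and 82 bases before the start, on the minus and the plus strand. *Fabp7* held 1 RBPJ core, 249 bases before the start, and 1 N-box, 136 bases before it. *Sox2* held none of these letters, and *Nes* held 1 receptor arm on the minus strand, 242 bases before the start. Among all 32851 promoter windows, 25.6% held the RBPJ core, 42.5% the N-box and 27.5% the class C site, and 6233 windows held the receptor arm. Of the 9 windows of the set, 3, 4, 3 and 2 held these letters. A pair of inverted arms with 3 bases between was in 0.00913% of all windows and in none of the 9. Such matches are descriptions of letters and carry no statement on binding.

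*Hes1* (chr16:30065357-30067796), the other HES repressor, was dim and did not pass the test. Its mean intensity during the first hour was 155 ± 34.8 (SD) in control and 135 ± 25.7 in corticosterone-treated animals. The log2 fold changes of *Hes1* were -0.19, -0.21 and -0.02 at the 3 hours, with a smallest adjusted p of 0.138, and corticosterone-treated animals were lower on 6, 6 and 4 of 8 arrays. The first-hour interval of *Hes1* ran from -0.39 to 0.00, and whether it differed from *Hes5* was not tested.

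*Hey1* (chr3:8663359-8667038), a HEY repressor, followed another course. During the first hour it read 5065 to 6083 (median 5434) in control and 4737 to 6026 (median 5191) in corticosterone-treated animals, with a log2 fold change of -0.08 (adjusted p = 0.124). During the fifth hour it read 4951 to 6860 in control and 4755 to 5782 in corticosterone-treated animals, with a log2 fold change of -0.18 ± 0.04 (adjusted p = 0.000659) and lower corticosterone-treated animals on 8 of 8 arrays. During the ninth hour it read 5554 to 6183 (median 5831) in control and 5019 to 5325 (median 5181) in corticosterone-treated animals. The groups did not overlap at the ninth hour, and the log2 fold change was -0.18 ± 0.04 (adjusted p = 0.00140). Intensity fell by 11.8% at the fifth and fell by 11.4% at the ninth hour, and the effects at the first and at the ninth hour were not called as different (log2 difference -0.09, adjusted p = 0.825). A dye difference and an effect of corticosterone cannot be told apart in this value.

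*Hey2* (chr10:30832359-30842783) was near background. Its mean intensity was 31.4 to 39.6 over the 6 groups, at the first hour 39.6 in control and 37.8 in corticosterone-treated animals. It was well above background in 1 to 2 of 8 control animals (Cy3) and 4 to 7 of 8 corticosterone-treated animals (Cy5) per hour. On each array more of all probes were so marked in Cy5 than in Cy3, so dye and treatment cannot be told apart in these counts. The log2 fold changes of *Hey2* were -0.06, 0.18 and 0.11, with a smallest adjusted p of 0.341, and the first-hour interval ran from -0.28 to 0.16.

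*Fabp7* (chr10:57784923-57788450), which encodes the fatty acid binding protein of radial glia and astrocytes, showed the largest decrease of the set. During the first hour it read 5402 to 7303 (median 6337) in control and 3167 to 4920 (median 3733) in corticosterone-treated animals. The groups did not overlap. Intensity fell by 39.8%, a log2 fold change of -0.73 ± 0.08 (adjusted p = 3.97e-09), and the within-slide means were -0.76, -0.73 and -0.72.

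*Fabp7* was also called lower during the fifth hour. Intensities were 6731 to 8961 (median 8038) in control and 4537 to 7598 (median 6862) in corticosterone-treated animals, with 3 of 8 corticosterone-treated animals below all controls. The log2 fold change was -0.33 ± 0.08 (adjusted p = 0.00270), negative on 7 of 8 arrays. During the ninth hour the log2 fold change was -0.09 (adjusted p = 0.485), and the highest animal of all, at 9727, was a corticosterone-treated one.

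*Sox2* (chr3:34649995-34652461), a transcription factor needed for stem cell self-renewal, read 2826 to 3571 (median 3101) in control animals and 1886 to 2932 (median 2250) in the corticosterone-treated ones at the first hour. Again 7 of 8 corticosterone-treated animals lay below the lowest control. Intensity fell by 28.4%, a log2 fold change of -0.48 ± 0.07 (adjusted p = 2.67e-07), with 8 of 8 arrays in that direction and within-slide means of -0.42, -0.41 and -0.59. During the fifth hour the log2 fold change was -0.11 (adjusted p = 0.255), and during the ninth hour it was 0.04 (adjusted p = 0.774), with arrays split 4 to 4.

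*Nes* (chr3:87971093-87980451) encodes nestin, an intermediate filament of neural progenitors that endothelial cells can also make. During the first hour it read 340 to 438 (median 409) in control and 281 to 428 (median 310) in corticosterone-treated animals, with 6 of 8 corticosterone-treated animals below all controls. The log2 fold change was -0.32 ± 0.07 (adjusted p = 0.000552), and during the fifth hour it was -0.25 ± 0.07 (adjusted p = 0.00500), with 8 of 8 arrays negative at both hours. At the fifth hour the call of *Nes* was lost without the first slide (log2 fold change -0.16, adjusted p = 0.112) or without the third (-0.27, adjusted p = 0.0523). During the ninth hour the value was -0.07 (adjusted p = 0.546).

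The arrays of the first hour did not rank the genes alike. The array with the smallest decrease of *Sox2*, *Fabp7* and *Nes*, at -0.12, -0.23 and -0.03, was the same one, on the second slide. *Hes5* had its smallest decrease, -0.18, on another array of that slide, where *Fabp7* had its largest, -1.03. The most negative ratio of *Hes5*, -1.16, was on the third slide.

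**Figure D3:**
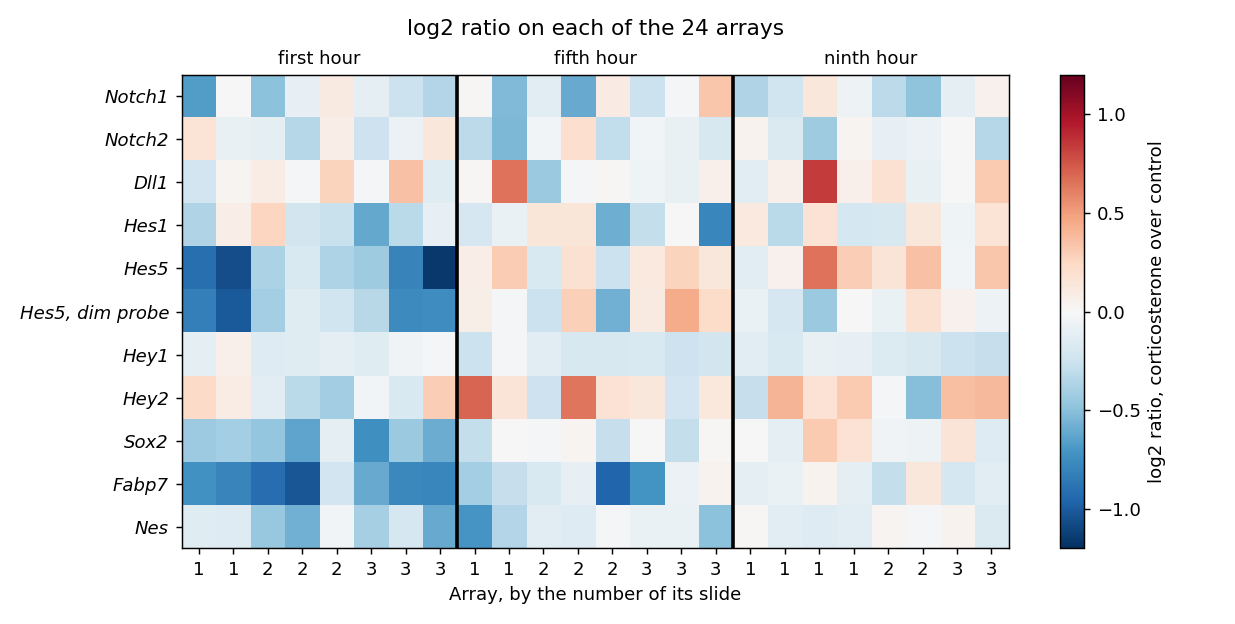
log2 ratio of corticosterone-treated over control animal (colour) for each of the 11 probes (rows) on each of the 24 arrays (columns, by hour and numbered by slide). At the first hour the rows of both *Hes5* probes, *Sox2*, *Fabp7* and *Nes* hold ratios below 0 on 8 of 8 arrays, down to -1.16 for *Hes5*.

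Whether the effect itself changed during the resting period was tested as the difference between the effects of 2 hours, a measure in which the dyes cancel. From the first to the ninth hour 3 of 11 probes were called, all of them toward higher values, beside 0.253% of all probes in that direction and 0.574% in the other. Of the 32033 probes with a mean intensity of 50 or more, adjusted among themselves, 517 were called in either direction. *Hes5* (bright probe) changed by 0.87 ± 0.13 (SE) on the log2 scale (adjusted p = 1.20e-05), *Fabp7* by 0.64 ± 0.12 (adjusted p = 0.000581) and *Sox2* by 0.52 ± 0.09 (adjusted p = 0.000376). The dim *Hes5* probe changed by 0.48 ± 0.16 without passing (adjusted p = 0.351), as did *Nes* with 0.25 ± 0.10 (adjusted p = 0.384). The calls of *Fabp7* (0.60, adjusted p = 0.179) and *Sox2* (0.48, adjusted p = 0.0636) were lost without the first slide and that of *Sox2* also without the third (0.46, adjusted p = 0.135). Over all alternatives the change was 0.60 to 0.67 for *Fabp7* and 0.46 to 0.59 for *Sox2*, and the call of *Hes5* held in each of the 18 alternative settings. Among markers of cell types, 1 of 5 endothelial ones, *Cldn5*, was also called toward higher values (0.60, adjusted p = 2.53e-05). Called toward lower values were 1 of 4 markers of oligodendrocyte precursors and 1 of 4 of cycling cells. The part of such markers in the changes of *Hes5*, *Fabp7* and *Sox2* was not tested.

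From the first to the fifth hour the effect on *Hes5* changed by 0.74 ± 0.13 (adjusted p = 0.00190). It was the only 1 of the 11 probes called, beside 0.0389% of all probes, and this call was lost without the first or the third slide. The within-slide means of the bright probe were -0.98, -0.31 and -0.79 at the first hour. At the fifth hour they were 0.19, -0.08 and 0.17, higher than at the first on each slide. *Fabp7* changed by 0.40 (adjusted p = 0.504) and *Sox2* by 0.38 (adjusted p = 0.152) over the same interval. From the fifth to the ninth hour limma's separate channel test called 0 of 11, beside 0.0830% of all probes, and limma on log ratios also called 0. By the separate channel test 1 of 11, *Fabp7*, had an unadjusted p below 0.05, beside 2934 of all 56605 probes.

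Animals of 1 treatment were also compared between hours. In corticosterone-treated animals 5 of 11 probes were higher during the ninth than during the first hour, beside 2.21% of all probes, and none was lower, beside 1.82%. Of the 32033 probes with a mean intensity of 50 or more, adjusted among themselves, 2671 were called in either direction. *Fabp7* rose by 0.93 ± 0.10 on the log2 scale (adjusted p = 1.19e-09), from a mean of 3828 ± 561 (SD, n = 8) to 7295 ± 1091. *Hes5* rose by 0.73 ± 0.11 (adjusted p = 3.87e-06) on the bright probe, from 3770 ± 739 to 6173 ± 595, and by 0.57 on the dim one (adjusted p = 0.00506). *Nes* rose by 0.44 ± 0.08 (adjusted p = 0.000117) and *Sox2* by 0.30 ± 0.08 (adjusted p = 0.0109). Without the first slide, or without the third, 3 of 11 were called, and fewer than 3 were called with the processed signals of the scanner software. Over all probes these calls also fell, from 2277 to 756 and 1003 without these slides, and to 529 with the processed signals.

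Part of this rise was called by the fifth hour. From the first to the fifth hour 3 of 11 probes were higher in corticosterone-treated animals, beside 0.546% of all probes called in either direction: *Fabp7* (0.75, adjusted p = 1.56e-06), *Hes5* (0.50, adjusted p = 0.00831) and *Sox2* (0.39, adjusted p = 0.00306). Without the third slide, or with the processed signals of the scanner software, 1 of 11 was called. Over all probes these calls also fell, from 309 to 49 and 39. From the fifth to the ninth hour limma's separate channel test called 0 of 11, beside 0.661% of all probes. At an unadjusted p below 0.05 there were 2 of 11, beside 5835 of all 56605 probes.

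In control animals 0 of 11 probes were called between the first and the ninth hour, beside 0.537% of all probes, 0 between the first and the fifth, beside 0.00530%, and 0 between the fifth and the ninth, beside 0.0336%, all by limma's separate channel test. At an unadjusted p below 0.05 these counts were 3, 4 and 1, beside 5801, 4078 and 3587 of all 56605 probes. Each separate channel alternative also called 0. The estimates were not all near 0. *Fabp7* was higher at the ninth hour by 0.29 ± 0.10 (adjusted p = 0.168) and *Nes* by 0.19 ± 0.08 (adjusted p = 0.321), whereas *Sox2* was at -0.22 ± 0.08 (adjusted p = 0.216) and *Hes5* at -0.14 ± 0.11 (adjusted p = 0.705).

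**Figure D4:**
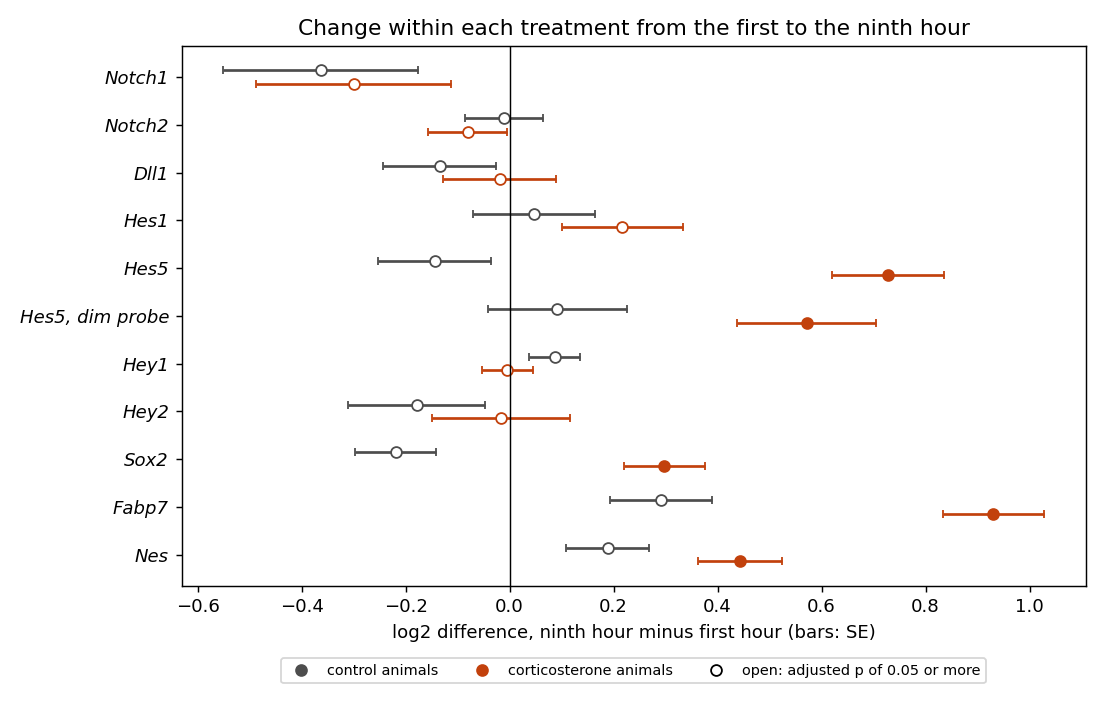
log2 difference between the ninth and the first hour (horizontal axis, with SE) in control and in corticosterone-treated animals for each of the 11 probes; filled points have an adjusted p below 0.05. Filled points occur among corticosterone-treated animals alone, from 0.30 for *Sox2* to 0.93 for *Fabp7*.

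A list of 77 other genes of the Notch pathway and of neural stem cells was described beside the 10 genes. Of these, 28 were called during the first hour, 13 higher and 15 lower; 24 during the fifth, 9 higher and 15 lower; and 14 during the ninth, 10 higher and 4 lower. Over all probes the shares higher and lower were 8.85% and 8.67%, 8.62% and 9.47%, and 7.01% and 6.97% at these hours, with dim probes included, whereas the list holds the brightest probe of each gene. The median log2 fold change of the list was 0.02, 0.02 and 0.03. Without the second and the third slide the first-hour count was 13 and 16, without the first and the third slide the fifth-hour count was 15 and 11, and without each slide in turn the ninth-hour count was 4, 9 and 8. In the same fits the calls over all probes also fell. They went from 9918 to 4597 and 5277 at the first hour and from 10241 to 6003 and 4094 at the fifth. At the ninth hour they went from 7910 to 1831, 4822 and 4927.

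The first-hour calls of the list are given here by role. Of 7 further ligands none was called at the first or the fifth hour by limma's separate channel test, and *Dll3* was higher at the ninth. At the first and the fifth hour 2 of 7 had an unadjusted p below 0.05, beside 17588 and 17654 of all 56605 probes. Of 2 further receptors *Notch4*, a receptor of endothelial cells, was higher at the first hour (0.27). Of 5 glycosyltransferases, which tune how receptors answer ligands, *Lfng* was higher and *Mfng* and *Pofut1* were lower. Of 9 genes of receptor cleavage 3 were higher (*Aph1b*, *Aph1c* and *Psen2*) and 1 lower (*Psenen*). Of 7 genes of the nuclear complex *Spen*, a corepressor, was higher and *Snw1* lower, whereas *Rbpj* itself was not called. Of 16 regulators 3 were higher (*Mib2*, *Nrarp* and *Tle3*) and 1 lower (*Fbxw7*). Of 5 further HES and HEY genes *Heyl* was lower. Of 26 stem cell and radial glia genes 4 were higher and 9 lower, with a median of -0.08.

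The 10 pathway genes with the smallest adjusted p at any hour ran both ways. *Gli1*, a transcription factor at the end of the Hedgehog pathway, was higher at each hour, with log2 fold changes of 0.61, 0.96 (adjusted p = 1.01e-09) and 0.56. *Prom1*, a surface marker of progenitors, was higher at each hour on its brightest probe (0.56, 0.58 and 0.41), while its other probe, of low intensity, was called at the first hour alone (0.41, 0.28 and 0.27). *Mib2*, a ubiquitin ligase of Notch ligands, was higher at each hour on its brightest probe (0.17, 0.20 and 0.17), while its other probe was called at the fifth hour alone (0.09, 0.15 and 0.08). *Lfng*, which adds sugars to Notch, was higher at the first (0.50, adjusted p = 5.41e-06) and the fifth hour (0.35) on its bright probe, while its other probe was at 0.31 (adjusted p = 0.0540) at the first. *Lpar1*, a receptor found on dentate stem cells and on oligodendrocytes, was lower at each hour on its brightest probe (-0.45, -0.61 and -0.36), while its other probe, of low intensity, was called at the fifth hour alone (-0.16, -0.44 and -0.13). *Sox9*, a transcription factor of radial glia and astrocytes, was lower at the first hour on its bright probe (-0.52, adjusted p = 1.59e-06) and at the fifth (-0.25, adjusted p = 0.0144). Its other probe was at 0.02 at the first hour (adjusted p = 0.910) and was called higher at the ninth (0.28, adjusted p = 0.0237), so the *Sox9* probes disagree.

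Of the 77 genes, 8 differed in effect between hours 1 and 9 of rest, 5 toward higher and 3 toward lower values, beside 0.253% and 0.574% of all probes. Of these, *Hopx*, *Fgfr3* and *Id4* are among those 10 genes, and *Heyl*, *Nr2e1*, *Tnfrsf19* and *Aph1b* were named after their values were seen. *Hopx*, a marker of quiescent stem cells, went from -0.35 to 0.05 (change 0.39, adjusted p = 0.0162), and *Nr2e1*, a nuclear receptor of stem cells, from -0.22 to 0.12 (change 0.34, adjusted p = 0.0170). *Heyl*, a HEY repressor, went from -0.39 to 0.25 (change 0.64, adjusted p = 0.0199). *Tnfrsf19* changed by 0.33 on its bright probe (adjusted p = 0.00214) and by 0.16 on the other (adjusted p = 0.892), and at the fifth hour its probes were called in opposite directions (-0.15, adjusted p = 0.0179, and 0.24, adjusted p = 0.0197).

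The other 3 genes moved in the opposite direction. *Fgfr3*, a growth factor receptor of astrocytes and radial glia, was higher at the first hour (0.43, adjusted p = 5.23e-08) and at -0.05 at the ninth, a change of -0.48 (adjusted p = 4.05e-05). The other *Fgfr3* probe changed by -0.57 (adjusted p = 0.00326). *Id4*, an inhibitor of proneural factors that holds stem cells quiescent, went from 0.06 to -0.31 (change -0.37, adjusted p = 0.00162), and *Aph1b*, a subunit of γ-secretase, from 0.26 to -0.11 (change -0.37, adjusted p = 0.0247). Without the first slide 3 of the 77 genes were called for this change, and without the second or the third slide 2.

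**Figure D5:**
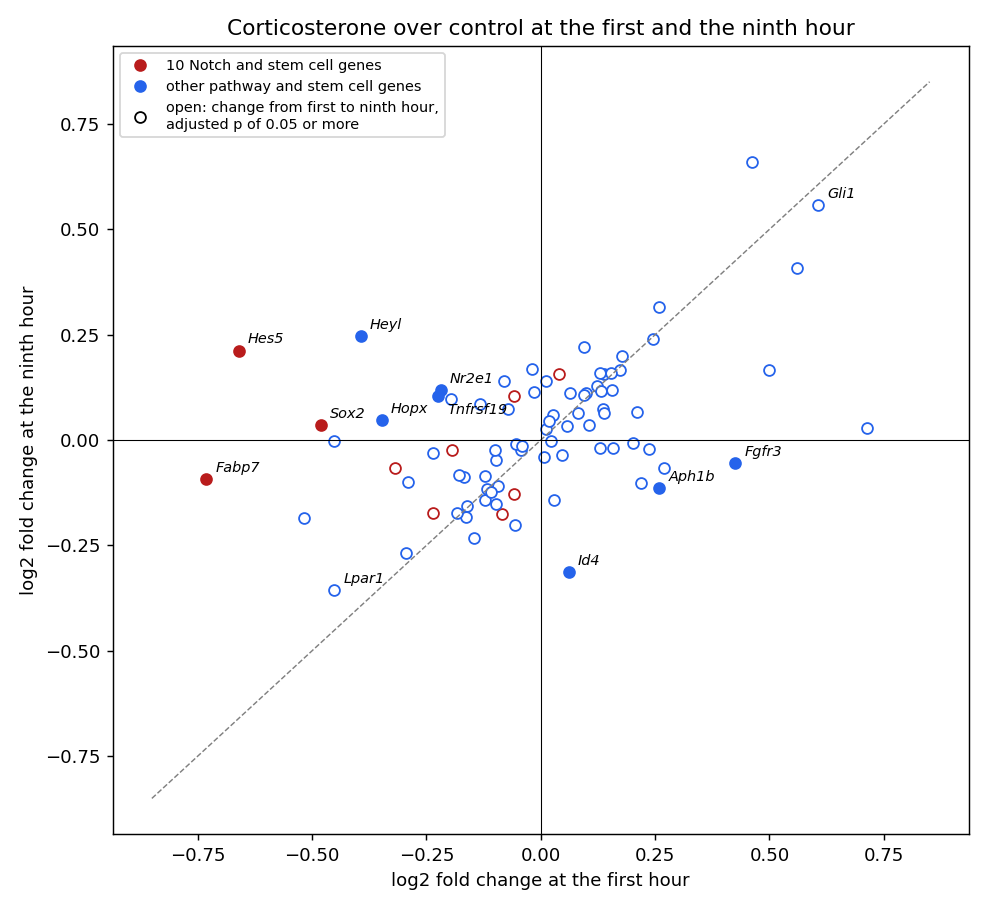
log2 fold change at the first hour (horizontal axis) against that at the ninth hour (vertical axis) for the 10 genes (red) and the other pathway and stem cell genes reported here (blue), 1 point a gene; filled points differed between these hours at an adjusted p below 0.05, and the dashed line marks equal effects. *Hes5*, *Sox2* and *Fabp7* lie left of the dashed line with *Heyl*, *Hopx*, *Nr2e1* and *Tnfrsf19*, and *Fgfr3*, *Aph1b* and *Id4* lie right of it.

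The course of *Hes5* over the 24 arrays was compared with that of 15405 other genes of sufficient signal, by the root mean square difference of the log2 ratios. *Sox2* was the third nearest, at 0.34. The nearest were *Nkx2-2*, a transcription factor of the oligodendrocyte lineage, and *Grrp1*, both also at 0.34, and *Mycn* (0.35) and *Zfp36l1* (0.36) completed the first 5. *Fabp7* ranked 163 (0.42), *Nes* 2413 (0.48), *Dll1* 3252 (0.48), *Notch1* 3775 (0.49), *Hes1* 4307 (0.49), *Hey1* 7483 (0.52) and *Notch2* 11793 (0.57).

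Markers of most cell types in the tissue included genes that were called at the first hour, more of them lower than higher. Over all probes, dim ones included, 8.85% were called higher and 8.67% lower at that hour. Of 7 astrocyte markers *Aqp4* was lower (-0.76) and *Aldh1l1* higher (0.57), and *Gja1*, *Slc1a2*, *Slc1a3*, *Gfap* and *S100b* were not called. The summed intensity of the astrocyte list was 45295 to 49053 in control and 46443 to 57148 in corticosterone-treated animals. Of 5 endothelial markers *Cldn5* (-0.36) and *Flt1* (-0.61) were lower and *Pecam1* higher (0.29), and *Cdh5* and *Slco1a4* were not called. The summed intensity was 9153 to 11348 in control and 6627 to 8549 in corticosterone-treated animals. This sum came mainly from *Flt1* and *Cldn5*, with mean intensities of 4897 and 2914. The means of *Pecam1*, *Cdh5* and *Slco1a4* were 161, 346 and 641. Of 4 markers of immature neurons *Dcx* was lower (-0.23), with sums of 3968 to 4527 and 3863 to 5488. Of 4 markers of cycling cells none was called by limma's separate channel test, and 1 had an unadjusted p below 0.05, beside 17588 of all 56605 probes. The sums of these 4 markers were 441 to 580 and 459 to 546. Of 5 microglial markers *Cx3cr1* (-0.20), *Aif1* (-0.44) and *P2ry12* (-0.49) were lower. Among oligodendrocyte markers *Mbp* was higher (0.20) and *Mag* (-0.27) lower. Lower calls were also made for 1 of 4 markers of mural cells, *Rgs5* (-0.23, adjusted p = 0.0291), with sums of 10085 to 10821 in control and 8815 to 11741 in corticosterone-treated animals. Of 5 choroid plexus markers *Enpp2* was lower (-0.30, adjusted p = 0.0429), the list's median was -0.19, and the sums were 6527 to 8317 and 5294 to 7218. Of 6 markers of the dissected hippocampus *Grik4* was lower (-0.13, adjusted p = 0.0177), with a list median of 0.01. Every marker on these lists was well above background on at least 1 array of each group, and the part of these markers in the values of the 10 genes was not tested.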

How the data were processed

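RNA of 48 mouse hippocampi had been hybridised to 24 two-colour Agilent arrays on 3 slides. The authors deposited scanner files of spot intensities, made with Agilent Feature Extraction 10.7.3.1, and a table of log2 ratios; the scale and direction of the deposited log2 table were found by setting it against the log ratios computed here (correlation 0.988 to 0.997 per array, over 56605 probes, column medians 0.00239 to 0.00889), and it served as an alternative.

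The intensities were background corrected by normexp and normalised by loess within and quantiles between arrays. Control and outlier spots had no weight in the loess fit but took part in the quantile step. Afterwards outlier spots were set aside, 3671 control spots were left out, and 300 probes printed in 10 copies were averaged. The separate channel test of limma 3.58.1 (R 4.3.3, statmod 1.5.0) was fitted to all 6 groups. As in the study's methods, p came from values with an offset of 50 and fold changes, SE and intensities from values without one. Benjamini-Hochberg adjustment ran over all 56605 probes in each comparison, with an adjusted p below 0.05 called; intervals are the estimate ± 1.96 SE. The replicates were separate animals. By the paper's account each group came from fewer litters than animals, so some animals of a group were brothers, and litter was not part of the fit. Of the probes, 34566 had 1 gene symbol through RefSeq accessions, whose gene positions are of GRCm38.p6, and 22039 had none. Mean intensities below 50 were taken as low, and 77 probes had 1 array missing. The number of arrays limits the precision.

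All 10 genes were named. Of the pathway list, the 10 genes with the smallest adjusted p in a corticosterone comparison were named, among 36 with a mean intensity of 50 or more and a call, except where a gene is not reported here. The genes and lists were chosen with earlier results of these data known. Alternatives covered offset, background, normalisation, dim probes, test, slide and variance, and the leaving out of each slide. The 2 animals of an array were paired through the intraspot correlation (0.279) and, as an alternative, through limma on the log ratios within arrays. Replicate numbers are not from the labels and paired no samples across hours.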

Additional observations from a re-analysis of the deposited data

Results flagged for a closer look

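Of 66 sets of 8 animals (11 probes in 6 groups), 7 held 1 animal far from the other 7; chance alone gives about 1 in 20 sets. Among control animals of the fifth hour, 1 had a *Hes1* intensity of 118.6 beside 153 to 183 in the others, and 1 a *Dll1* intensity of 120.3 beside 158 to 196. Among corticosterone-treated animals, 1 of the fifth hour had a *Hey1* intensity of 5782 beside 4755 to 5071, and 1 of the ninth hour a *Notch2* intensity of 735.4 beside 839 to 917. *Sox2* read 2932 in 1 corticosterone-treated animal of the first hour beside 1886 to 2304, and 2515 in 1 of the fifth hour beside 2844 to 3177. *Fabp7* read 9727 in 1 corticosterone-treated animal of the ninth hour beside 6439 to 7562.

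The effect of corticosterone at the first hour differed from that at the ninth by limma's test of the difference. On the log2 scale, the difference was 0.87 for *Hes5*, 0.64 for *Fabp7* and 0.52 for *Sox2*. Among pathway genes it was 0.64 for *Heyl*, 0.39 for *Hopx*, 0.34 for *Nr2e1* and 0.33 for *Tnfrsf19*. It was -0.48 for *Fgfr3*, -0.37 for *Id4* and -0.37 for *Aph1b*. Between the first and the fifth hour the effect on *Hes5* differed by 0.74, while from the fifth to the ninth that on *Fgfr3* differed by -0.36.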

How the results depend on the processing

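Corticosterone effects and their changes were recomputed under 18 other settings, 17 planned and 1 chosen after seeing the data, and comparisons of hours within 1 treatment under all of these but the 3 on log ratios, which cannot give them. No called value changed direction. The first-hour calls of *Hes5*, *Sox2*, *Fabp7* and *Nes* and the later calls of *Hey1* held in all 18. Of the 11 probes, the count for the difference in effect, first to ninth hour, went from 3 to 1 without slide 1, and that from the first to the fifth hour from 1 to 0 without slide 1 or slide 3. In corticosterone-treated animals the ninth against the first hour went from 5 to 2 with the processed signals and to 3 without slide 1 or slide 3, and the fifth against the first from 3 to 1 with the processed signals or without slide 3. The ninth-hour count went from 1 to 2 with the processed signals or with the arrays of that hour alone. Of the 77 pathway genes, the difference in effect, first to ninth hour, went from 8 to 2 with the processed signals and to 3, 2 and 2 without slides 1, 2 and 3. The ninth against the first hour in corticosterone-treated animals went from 18 to 2 with the processed signals, 7 without slide 1 and 11 without slide 3. The first-hour count went from 28 to 13 and 16 without slides 2 and 3, the fifth-hour count from 24 to 15 and 11 without slides 1 and 3, and the ninth-hour count from 14 to 4, 9 and 8 without slides 1, 2 and 3. Over all probes, the difference in effect, first to ninth hour, went from 468 to 347 with the processed signals. Without slides 1, 2 and 3 that count was 123, 261 and 174. The difference from the first to the fifth hour went from 22 to 25 and 7 without slides 1 and 3. In corticosterone-treated animals the ninth against the first hour went from 2277 to 529 with the processed signals. Without slides 1 and 3 that count was 756 and 1003. Leaving out a slide means fewer arrays, and beyond this the cause was not tested. *Hey2* gave no value where probes below an intensity of 50 were left out.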
